A study of Homo sapiens with 6 samples.

Results

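The core autophagy genes followed here are 10 genes chosen by name, SQSTM1, MAP1LC3B, GABARAP, GABARAPL1, GABARAPL2, ULK1, WIPI1, ATG5, ATG7 and BECN1, out of 60892 rows in the deposited count table, and each was found by its Ensembl ID. They were read in 3 libraries of BEAS-2B cells given ZQ (Zhenqi Granules, a herbal preparation) at 10 mg/mL and in 3 control libraries given medium alone. BEAS-2B is a line of human airway epithelium immortalised with viral genes, labelled wild type (WT) in both groups. Pretreatment lasted 24 hours, after which methicillin-resistant Staphylococcus aureus (MRSA) was added to both groups at an infection ratio of 1 to 1, and RNA was collected 2 hours later. Since every library came from cells with MRSA, ZQ and its medium control can be compared under infection, but infection itself cannot be compared with none. The labels do not say whether the 3 libraries of a group were separate cultures, so p-values cover the spread between these libraries only.

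Autophagy encloses cytoplasm, damaged organelles or bacteria in a double membrane, the autophagosome, and delivers it to lysosomes. The kinase ULK1 starts the process, a lipid kinase complex built on Beclin 1 (BECN1) marks the forming membrane with PI3P, and WIPI proteins read that mark. A conjugation machinery that includes ATG7 and ATG5 then attaches ubiquitin-like ATG8 proteins (the LC3 and GABARAP families) to the membrane, where receptors such as p62 (SQSTM1) bind them and bring in cargo. In epithelial cells the pathway is known for taking up intracellular bacteria, S. aureus among them. Transcript levels are measured here, and they do not measure autophagosome number or the rate of degradation.

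The 4 core genes of the ATG8 family differ in sequence but share the end at which they are attached. The final bases of each open reading frame are shown because they hold the site cut by the ATG4 proteases. The cut falls after the glycine whose codon stands in capitals, which exposes the residue by which the protein is attached. The sequences are from GENCODE release 29 on GRCh38, 5′ to 3′ and ending with the stop codon.
MAP1LC3B: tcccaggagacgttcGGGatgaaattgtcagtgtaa
GABARAP: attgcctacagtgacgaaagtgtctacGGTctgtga
GABARAPL1: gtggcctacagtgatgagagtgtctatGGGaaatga
GABARAPL2: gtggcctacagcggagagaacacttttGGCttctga
Over the whole open reading frame, GABARAP and GABARAPL1 were 76.8% identical and GABARAP and GABARAPL2 62.4%, while MAP1LC3B shared 53.9% to 58.5% of aligned bases with these 3 genes.

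The libraries differed in ways that touch every value below. ZQ libraries held 2064566 to 2451746 counts and control libraries 11665967 to 14699677, and transcripts of the mitochondrial genome took 38.4% to 40.7% of counts with ZQ and 7.04% to 10.1% in controls. As a gauge of background reads, olfactory (smell) receptor genes, typical of the nose, held 0.501 ± 0.0745 counts per kb in ZQ libraries and 0.0556 ± 0.00989 in control libraries (SD, n = 3 each), although ZQ libraries were the shallower. Of 8 epithelial markers, 5 had at least 3 counts in every library (KRT7, KRT8, KRT18, VIM and EPCAM), with a summed level of 3298 to 3491 TMM-scaled CPM with ZQ and 2331 to 3742 CPM in controls. Within that sum KRT7 and VIM, VIM being also a mesenchymal marker, were higher with ZQ (log2 changes 1.61 and 1.71) and KRT8 was lower (-1.24), with VIM at 1520 CPM with ZQ and 464 CPM in controls. KRT19 had 0, 5 and 2 counts in the ZQ libraries, against 81, 102 and 75 in controls (log2 change -2.24, edgeR adjusted p = 0.056, not called). The basal keratin KRT5 had 3 counts in 1 ZQ library and none in the others, and CDH1 had at most 6 in any library. Leukocyte markers summed to 10.2 to 20.7 CPM with ZQ and 0.385 to 1.28 CPM in controls, none of the 8 had 3 counts in every library, and 2 (LYZ and CD68) were at 0 in all. Endothelial markers summed to 19.7 to 23.7 CPM with ZQ and 0.930 to 2.87 CPM in controls. The endothelial markers tested, PECAM1 and VWF, were called higher (log2 changes 6.64 and 3.85). PECAM1 had 14, 14 and 6 counts with ZQ, against 2, 0 and 0 in controls. Both passed the low-count filter only through the ZQ libraries, so their calls are a description only. Fibroblast markers, mostly COL1A1, summed to 102 to 132 CPM with ZQ and 313 to 602 CPM in controls, and COL1A1 and COL1A2 were called lower (-1.79 and -2.92). The part of depth, background reads and mitochondrial share in the results was not tested, apart from the alternatives named. In bulk RNA, fewer cells using a gene and less of its RNA per cell cannot be told apart.

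Of the 10 genes, 4 were lower with ZQ (ATG5, ATG7, BECN1 and MAP1LC3B) and none was higher. For SQSTM1, GABARAPL1, GABARAPL2, ULK1 and WIPI1 no change passed the test, and GABARAP had too few counts to be tested. Without control library 1, 2 or 3, and with controls thinned, 2 genes were lower (ATG5 and BECN1). The 9 tested genes lay above the level of the low-count filter, 1.42 CPM of library totals, in all 6 libraries. A gene was called at an adjusted p under 0.05 in edgeR's quasi-likelihood test over all 12994 tested genes, of which 38.3% were called, 19.0% lower and 19.3% higher with ZQ. The median log2 change, ZQ over control, was -0.55 for the 9 genes and 0.03 for all tested genes. In the same 4 genes the CPM values of the groups did not overlap, as in 53.5% of all tested genes (28.0% with ZQ the lower). Over all tested genes, upper-quartile scaling and scaling by library totals moved the change by a median of 0.45 and -0.38 on the log2 scale. The calls then stood at 3767 higher and 1611 lower by the upper quartile and at 1785 and 3503 by totals, beside 2506 and 2472 with TMM.

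**Figure D1:**
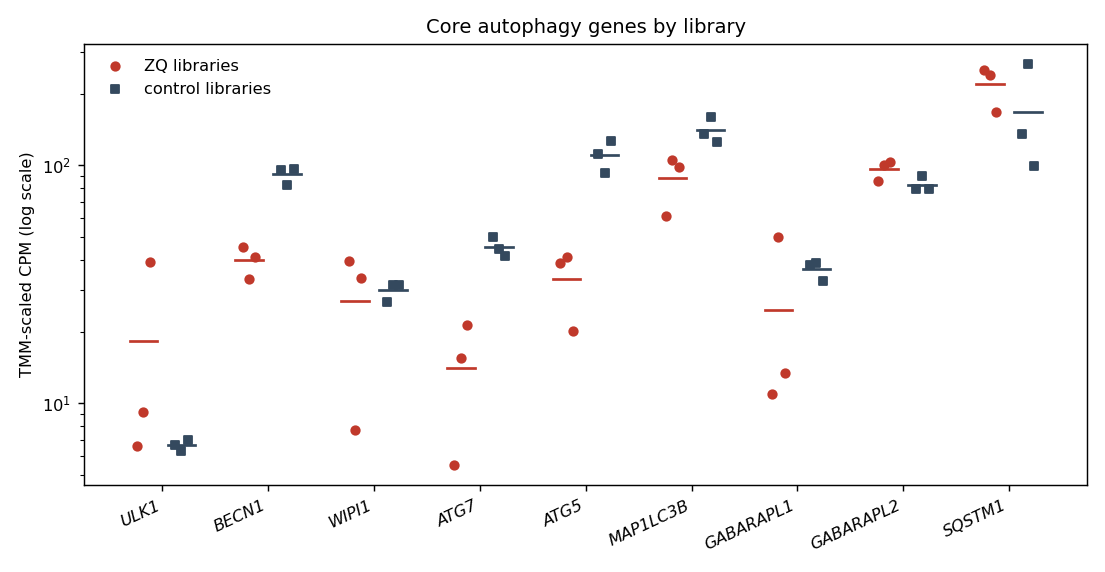
TMM-scaled CPM (log axis) of the 9 tested core autophagy genes, with a point for each library and a line at the group mean, ZQ libraries left of control libraries. The ZQ libraries lie below all control libraries for BECN1, ATG7, ATG5 and MAP1LC3B, and for ULK1 and GABARAPL1 a single ZQ library lies far above the other two.

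Of the genes that start the process, BECN1 was lower with ZQ and ULK1 and WIPI1 had no call. BECN1, which encodes the scaffold of the lipid kinase complex, had 45.5, 33.4 and 41.3 CPM in ZQ libraries 1 to 3, against 95.3, 82.6 and 96.8 CPM in control libraries 1 to 3. The highest ZQ library stood well below the lowest control library. The log2 change was -1.19 ± 0.24 (SE), 0.437 of the control level, with an edgeR adjusted p of 0.0032, and 19.6% of tested genes changed as low or lower. The call held in all 17 alternatives tried, over which the change ran from -1.57 to -0.75. BECN1 lies on the minus strand of chromosome 17 at 42810134 to 42833350 (GRCh38, as are all positions here), and 4.68% of its exon bases are also exon bases of PSME3 on the other strand, a gene with 866 ZQ counts and 14152 control counts whose own log2 change was -1.08. CNTD1, also on the other strand, shares 12.4% of the exon bases of BECN1 and held 26 ZQ and 31 control counts. Strand use in the counting is not stated in the labels, so reads of such neighbours cannot be told apart.

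ULK1, the initiating kinase, had 6.58, 9.19 and 39.1 CPM in the ZQ libraries, against 6.70, 6.28 and 7.01 CPM in controls. ZQ libraries 1 and 2 stood near the controls, and ZQ library 3 held 70 of the 101 ZQ counts. The log2 change of 1.45 ± 0.66 (SE) did not pass (edgeR adjusted p = 0.11), with a 95% interval of -0.01 to 2.91. Without ZQ library 3 it was 0.16, and with offsets for GC content and transcript length it was 0.04, ULK1 being the richest in GC of the core genes at 64.2%. It passed without ZQ library 1 (1.75) and with upper-quartile scaling (1.88). The gene held 13.3 ZQ counts per kb of exon, under the 99th percentile of the smell receptor genes (16.0), whose pooled density was 1.50. ULK1 lies on the plus strand of chromosome 12 at 131894651 to 131923167.

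WIPI1, which binds PI3P on the forming membrane, had 39.5, 7.74 and 33.5 CPM in the ZQ libraries, against 26.6, 31.4 and 31.4 CPM in controls. A pair of ZQ libraries stood above every control and ZQ library 2 far below. The log2 change was -0.15 ± 0.51 (SE, edgeR adjusted p = 0.83), its 95% interval ran from -1.28 to 0.98, and no alternative gave a call. The change was 0.29 with upper-quartile scaling and 0.20 without ZQ library 2, so it has no stable direction. The gene lies on the minus strand of chromosome 17 at 68420948 to 68457513, and 24.3% of its exon bases overlap ARSG on the other strand, which held 33 ZQ and 150 control counts.

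Both conjugation enzymes among the core genes were lower with ZQ. ATG5, which is joined to ATG12 and then helps to place ATG8 proteins on the membrane, had 38.9, 41.1 and 20.1 CPM in the ZQ libraries, against 111, 92.5 and 127 CPM in controls. The highest ZQ library stood far below the lowest control library. The log2 change was -1.72 ± 0.30 (SE, edgeR adjusted p = 0.0014), and 11.6% of tested genes changed as low or lower. The call held in 16 of 17 alternatives and ended with the offsets for GC content and transcript length, where the change was -0.48 (edgeR adjusted p = 0.23). The GC content of ATG5, 38.8%, was the lowest of the core genes. ATG5 lies on the minus strand of chromosome 6 at 106045423 to 106325791.

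ATG7, the activating enzyme that charges both ATG12 and the ATG8 proteins, had 5.49, 15.5 and 21.2 CPM in the ZQ libraries, against 49.8, 44.6 and 41.7 CPM in controls. The ZQ libraries varied more than the controls but none overlapped them. The log2 change was -1.69 ± 0.45 (SE, edgeR adjusted p = 0.014). It rested on 80 ZQ counts, 9.06 per kb of exon and under that same percentile of the smell receptor genes, and 2037 control counts. The call ended without control library 1 (-1.48), 2 (-1.62) or 3 (-1.62) and at -1.37 once the control counts were thinned to the depth of the ZQ libraries, and the change was -1.85 with the offsets. ATG7 lies on the plus strand of chromosome 3 at 11272309 to 11557665, and 18.1% of its exon bases overlap VGLL4 on the other strand, which held 21 ZQ and 653 control counts.

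**Figure D2:**
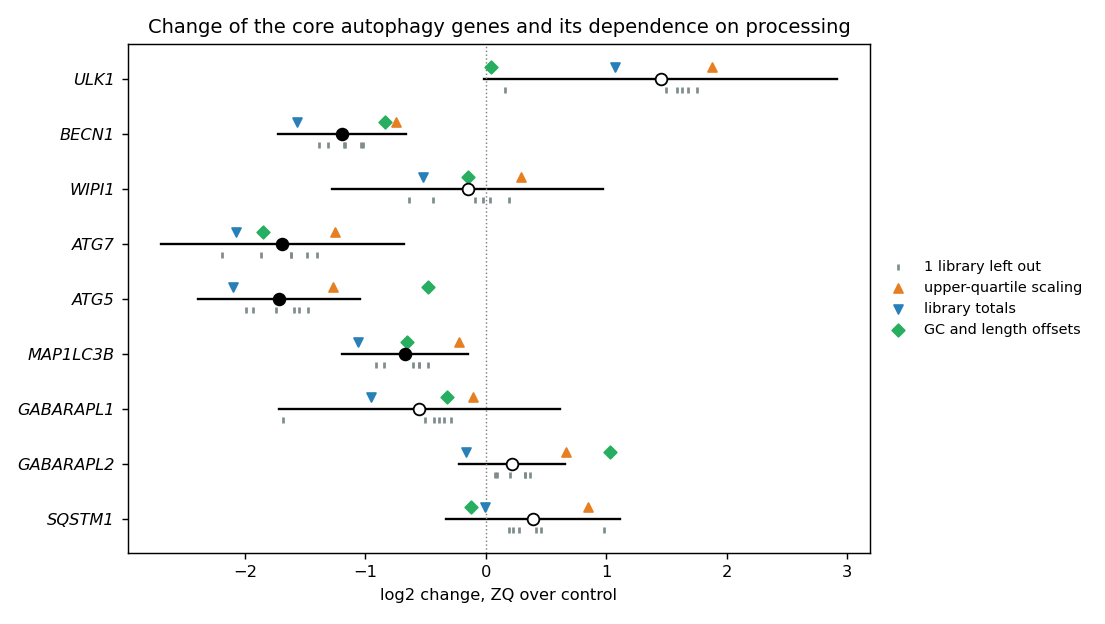
Log2 change (ZQ over control) of the 9 tested core autophagy genes. Circles with 95% intervals are the edgeR estimates (filled where the adjusted p is under 0.05), triangles 2 other scalings, diamonds the offsets for GC content and length, and ticks the fits with 1 library left out. BECN1, ATG7, ATG5 and MAP1LC3B stay left of 0 in every fit drawn, ATG5 moves to -0.48 with the offsets, and SQSTM1, GABARAPL2 and WIPI1 fall on both sides of 0.

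Among the ATG8 genes, MAP1LC3B was lower with ZQ and GABARAPL1 and GABARAPL2 had no call. MAP1LC3B, which encodes LC3B, the usual marker protein of autophagosomes, had 60.9, 105 and 98.2 CPM in the ZQ libraries, against 135, 160 and 126 CPM in controls. Every ZQ library stood below every control, the closest pair being ZQ library 2 and control library 3. The log2 change was -0.67 ± 0.24 (SE, edgeR adjusted p = 0.046), 0.628 of the control level. The call held in 7 of 17 alternatives and ended with upper-quartile scaling (-0.22), with DESeq2's test (-0.59) and without ZQ library 1 (-0.56) or control library 1 (-0.56), 2 (-0.48) or 3 (-0.61), among others. The gene lies on the plus strand of chromosome 16 at 87383995 to 87404779.

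A near-identical copy, MAP1LC3B2 on chromosome 12, can share reads with MAP1LC3B. The 2 open reading frames differ at 2 of 378 bases, and the first 60 bases are shown because they hold one of these, in capitals.
MAP1LC3B: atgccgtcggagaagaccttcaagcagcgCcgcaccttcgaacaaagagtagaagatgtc
MAP1LC3B2: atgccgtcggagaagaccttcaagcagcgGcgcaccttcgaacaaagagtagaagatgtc
MAP1LC3B2 held 17 ZQ counts and 56 control counts, against 504 and 6355 for MAP1LC3B, so moving all of them would change the MAP1LC3B values little. Whether reads that match both genes were left uncounted was not tested. The log2 change of MAP1LC3B2 itself was 1.23 ± 0.62 (SE, edgeR adjusted p = 0.14). This gene passed the low-count filter only through the ZQ libraries, where its CPM was higher, so that change is a description only.

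GABARAPL2, whose product acts in autophagosome growth and in transport within the Golgi, had 86.1, 100.1 and 103 CPM in the ZQ libraries, against 79.7, 89.9 and 79.1 CPM in controls. The groups overlapped through ZQ library 1. Its log2 change was 0.22 ± 0.20 (SE, edgeR adjusted p = 0.42), with a 95% interval of -0.23 to 0.66. It passed as higher with upper-quartile scaling (0.66) and with the offsets for GC content and length (1.03), and was -0.17 by library totals, so its direction depends on the processing. GABARAPL2 lies on the plus strand of chromosome 16 at 75566351 to 75577881, and its GC content is 42.1%.

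GABARAPL1, a stress-induced member of the family, had 10.97, 49.8 and 13.4 CPM in the ZQ libraries, against 38.2, 38.7 and 32.7 CPM in controls. ZQ library 2 stood above every control and the other two ZQ libraries below every control. With all libraries the log2 change was -0.55 ± 0.53 (SE, edgeR adjusted p = 0.43), with a 95% interval of -1.72 to 0.61. Without ZQ library 2, which held 103 of 147 ZQ counts, it was -1.68 and passed (edgeR adjusted p = 0.0073). The gene lies on the plus strand of chromosome 12 at 10212458 to 10223130, and its near-copy GABARAPL3, 95.5% identical over the open reading frame, had no count in any library.

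GABARAP, the founding member of its subfamily, could not be followed. It had 0, 1 and 0 counts in the ZQ libraries, against 1, 6 and 1 in controls, a ratio of 0.986 with a 95% exact binomial interval of 0.0222 to 7.35 that covers counting error only. In the GENCODE annotation all 351 coding bases of its principal transcript also belong to another gene. A gene on the same strand whose transcript is tagged as read-through (ENSG00000262526) covers 74.4% of them, and a provisional gene on the other strand (ENSG00000279641) the remainder. Those genes held 0 and 1 counts in all ZQ libraries together and 0 and 2 in controls. Whether reads in shared bases were left uncounted was not tested, and the counts here give no level for GABARAP RNA. GABARAP lies on the minus strand of chromosome 17 at 7240014 to 7242770.

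Within the ATG8 family, shares of the family's counts do not depend on scaling between libraries. MAP1LC3B took 32.2%, 34.3% and 38.4% of the counts of the 7 family genes in ZQ libraries 1 to 3, against 49.0%, 49.8% and 48.5% in control libraries 1 to 3. The groups were clearly apart, with means of 35.0% ± 3.18 with ZQ and 49.1% ± 0.643 in controls (SD, n = 3 each). GABARAPL2 took 45.5%, 32.8% and 40.2% in the ZQ libraries, against 28.9%, 28.0% and 30.5% in controls, and MAP1LC3A, an LC3 gene with a GC content of 64.5%, took 15.02% ± 0.508 with ZQ and 8.34% ± 1.06 in controls. Neither overlapped between groups. Shares are not corrected for GC content or length, and with those offsets the log2 changes were -0.78 for MAP1LC3A (not called), -0.66 for MAP1LC3B and 1.03 for GABARAPL2, so the higher share of MAP1LC3A does not hold relative to MAP1LC3B there. GABARAPL1 took 9.11% ± 6.23 with ZQ and 12.8% ± 0.910 in controls and overlapped. These shares rest on 345 to 632 family counts in ZQ libraries and 3359 to 5516 in controls. GABARAP took 0.0527% with ZQ and 0.0544% in controls. As its counts give no level, the shares in effect leave it out and do not give the make-up of the whole family. Shares within a family are not independent of each other. Counting MAP1LC3B and MAP1LC3B2 as 1 gene gave 36.3% with ZQ and 49.6% in controls.

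**Figure D3:**
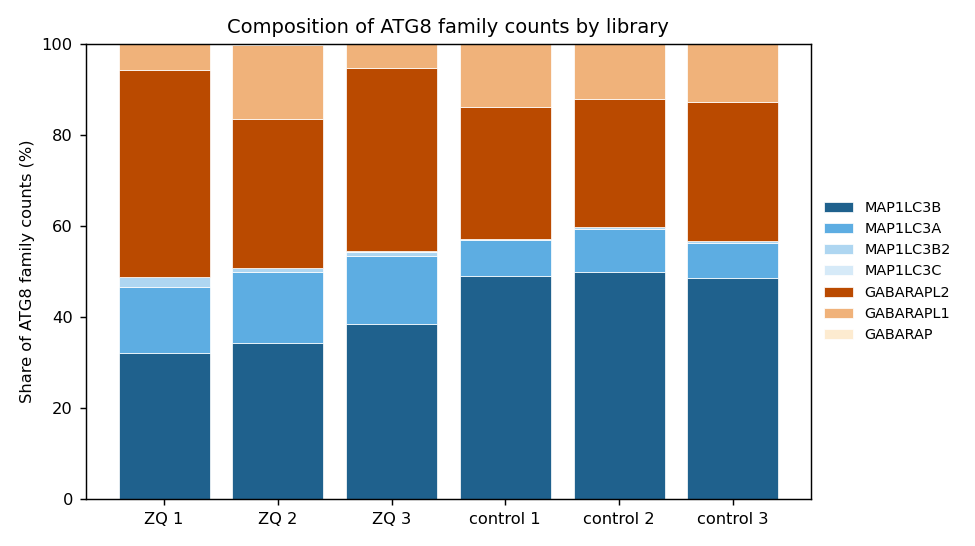
Share of the ATG8 family counts (%, stacked bars) held by each of the 7 genes, in the 3 ZQ libraries at the left and the 3 control libraries at the right. MAP1LC3B takes 32.2% to 38.4% of each ZQ bar and 48.5% to 49.8% of each control bar. GABARAP, whose counts give no level, is in effect absent from the bars.

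SQSTM1 encodes p62, the receptor that ties ubiquitin-marked cargo to ATG8 proteins and is itself degraded with it. It had 251, 238 and 167 CPM in the ZQ libraries, against 135, 266 and 99.6 CPM in controls. Control library 2 stood above every ZQ library and the other two controls below all of them. The log2 change was 0.39 ± 0.32 (SE, edgeR adjusted p = 0.37), with a 95% interval of -0.33 to 1.11. Without control library 2, which held 4577 of 7846 control counts, the change was 0.98 and passed as higher (edgeR adjusted p = 0.015). It was -0.0054 by library totals and -0.13 with the offsets, so the direction depends on the processing. SQSTM1 lies on the plus strand of chromosome 5 at 179806398 to 179838078, where 20.7% of its exon bases overlap MRNIP on the other strand, with 21 ZQ and 93 control counts. A further 1.37% overlap MGAT4B, also on the other strand, which held 177 ZQ and 274 control counts and was itself higher with ZQ (log2 change 2.31, edgeR adjusted p = 0.011). The pseudogene SQSTM1P1 had 16 ZQ counts and none in controls.

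Levels were compared between genes as CPM per kb of exon. With ZQ, GABARAPL2 was the most abundant at 31.7 ± 2.94 CPM per kb, followed by SQSTM1 at 28.6 ± 5.87 and MAP1LC3B at 16.6 ± 4.47 (SD, n = 3). Next came WIPI1 (7.91 ± 4.96), BECN1 (6.25 ± 0.962), GABARAPL1 (6.05 ± 5.33) and ATG5 (5.90 ± 2.04), which did not differ beyond their spread, then ULK1 (2.40 ± 2.37) and ATG7 (1.59 ± 0.901). In the ZQ order, SQSTM1 and MAP1LC3B were the only neighbours whose mean ± SD ranges did not overlap. In controls GABARAPL2 (27.3 ± 2.00), MAP1LC3B (26.4 ± 3.29), SQSTM1 (21.8 ± 11.4) and ATG5 (19.5 ± 3.04) led. The wide range of SQSTM1 overlapped those of the other three, while that of ATG5 lay below those of GABARAPL2 and MAP1LC3B. BECN1 (14.3 ± 1.22), then GABARAPL1 (8.94 ± 0.819) beside WIPI1 (8.75 ± 0.810), then ATG7 (5.14 ± 0.463) and ULK1 (0.876 ± 0.0488) followed, each of these steps being larger than the spread. ATG5 thus took place 7 with ZQ and place 4 in controls.

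The remaining pathway was read from 71 further genes in 8 groups by role, of which 68 were tested. With ZQ 19 of these 68 genes were lower and 4 higher. Of all 12994 tested genes, 2472 (19.0%) were lower and 2506 (19.3%) higher. The counts by role that follow are to be read beside those percentages, and no role was tested as a set. The median log2 change of the 68 genes was -0.11. The 4 called higher were WIPI2, ATG2A, TSC2 and VPS18, and TSC2 and VPS18 are named here after their values were seen. For TSC2, ZQ library 2 held 94 of 142 ZQ counts, and for VPS18, control library 2 held 414 of 603 control counts. How their own calls stand in the alternatives is not given here. With upper-quartile scaling 11 of the 71 further genes were higher and 11 lower, by library totals 1 was higher and 22 lower, and without control library 1 none was higher and 13 were lower. Without ZQ library 2 or control library 3 a single gene was higher in each case.

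**Figure D4:**
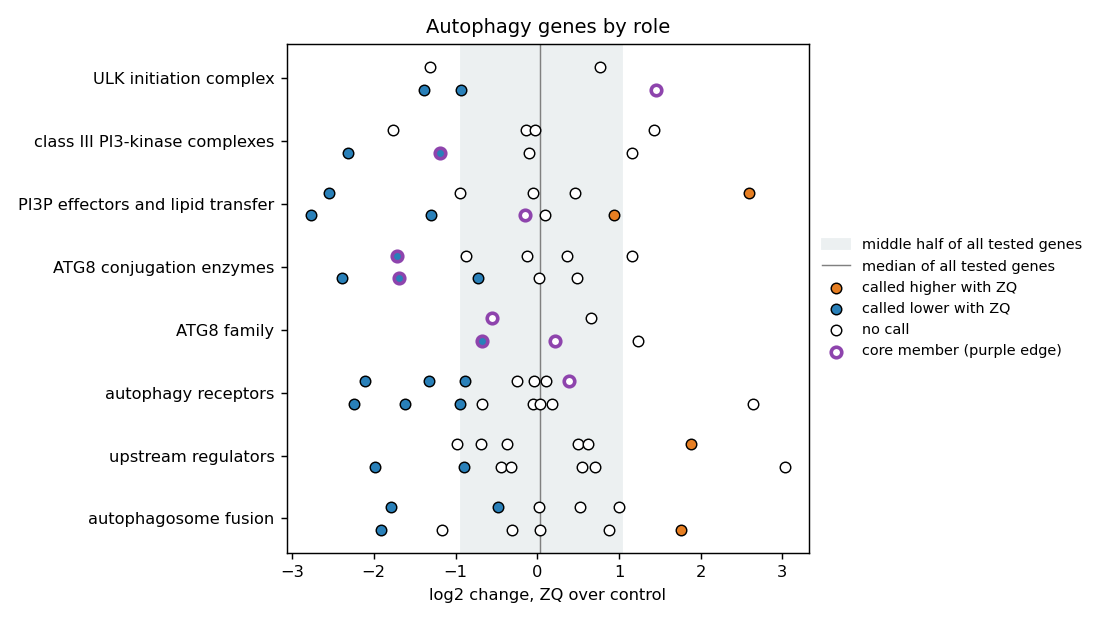
Log2 change (ZQ over control) of the tested autophagy genes by role, a point per gene, coloured by its call, with core genes edged in purple. Grey shading marks the range between the 25th and 75th percentile of all tested genes. With TMM scaling, the ULK complex, lipid kinase complexes, ATG8 conjugation enzymes, ATG8 family and autophagy receptors hold calls on the lower side only. Over all tested genes 19.0% were lower and 19.3% higher. Upper-quartile scaling called ULK1, ATG4B, MAP1LC3A and GABARAPL2 higher in these same roles. The 4 genes called higher lie among PI3P effectors, upstream regulators and autophagosome fusion genes, which also hold genes called lower.

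Around ULK1, both called genes were lower, 2 of 4 tested. RB1CC1, the scaffold FIP200 of the ULK complex, had 35.0 ± 14.3 CPM with ZQ and 91.5 ± 4.48 CPM in controls (SD, n = 3 each), and fell by 1.39 ± 0.31 on the log2 scale (SE, edgeR adjusted p = 0.0057). With the offsets it was -0.36 and not called, its GC content being 37.6%. ATG13, another subunit, changed by -0.93 ± 0.32 (SE, edgeR adjusted p = 0.042), a call that held in 8 of 17 alternatives. It ended without any 1 of the control libraries (-0.66 to -0.88), among others. Beside BECN1, 1 of 7 tested members of the lipid kinase complexes was lower and none higher. PIK3C3, the catalytic subunit VPS34, had 0, 29 and 42 counts in ZQ libraries, against 617, 747 and 542 in controls, and its log2 change of -1.76 ± 0.79 (SE) did not pass (edgeR adjusted p = 0.11), though it did without ZQ library 1 (-1.28) or 3 (-2.65). ATG14, which directs the complex to autophagy, was at 6.66 ± 3.82 CPM with ZQ and 7.36 ± 1.10 CPM in controls (SD, n = 3 each). PIK3C3 and ATG14 held 4.67 and 7.52 ZQ counts per kb of exon, under the 99th percentile of the smell receptor genes.

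PI3P effectors and lipid transfer genes went both ways, with 2 higher and 3 lower of 9 tested beside WIPI1. WIPI2, the paralog that recruits the ATG16L1 complex, had 59.6 ± 14.0 CPM with ZQ and 31.1 ± 0.772 CPM in controls (SD, n = 3 each), and rose by 0.94 ± 0.29 on the log2 scale (SE, edgeR adjusted p = 0.026). The call held in 9 of 17 alternatives and ended without ZQ library 1 (0.70) or 2 (0.80), without control library 1 (1.06) or 3 (1.07), and at 0.56 both by library totals and with the offsets. It also ended with no low-count filter (0.63) and with a replicate block (0.91). ATG2A, a lipid transfer protein, rose by 2.59 ± 0.77 on the log2 scale (SE, edgeR adjusted p = 0.023), but ZQ library 3 held 121 of its 159 ZQ counts and without that library the change was 0.94 and not called. That call also ended without control library 1 (2.60) or 3 (2.56) and with the offsets (1.24), among others. ATG9A, the membrane protein of the seed vesicles, had no call at -0.95 ± 0.96 (SE), with 258 of its 302 control counts in control library 2.

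Of the 8 tested conjugation enzymes other than ATG5 and ATG7, 2 were lower and none higher. ATG12, the ubiquitin-like partner of ATG5, changed by -0.73 ± 0.20 (SE, edgeR adjusted p = 0.016), and ATG16L1, which binds that pair, by -2.39 ± 0.80 (SE, edgeR adjusted p = 0.038). With the offsets ATG12, with a GC content of 37.5%, stood at 0.50 without a call. The call of ATG12 also ended without control library 1 (-0.58) or 3 (-0.55), among others. ATG16L1 had 6, 12 and 0 counts in the ZQ libraries, against 259, 347 and 142 in controls, and its 2.98 ZQ counts per kb of exon were under the 99th percentile of the smell receptor genes. It stood at -3.38 without ZQ library 2. ATG16L1 lost its call without any 1 of the control libraries (-2.13 to -2.48) and without ZQ library 1 (-2.52), among others. ATG3, the enzyme that hands ATG8 proteins to the lipid, was at 137 ± 17.1 CPM with ZQ and 135 ± 10.2 CPM in controls (SD, n = 3 each). Its log2 change was 0.02, but 1.13 and past the threshold with the offsets. ATG4B, the main ATG8 protease, and MAP1LC3A had no call, with log2 changes of 0.49 ± 0.30 and 0.65 ± 0.36 (SE) that both turned negative with the offsets (-0.40 and -0.78).

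Autophagy receptors other than SQSTM1 were lower in 6 of 14 tested and higher in none, beside 19.0% lower and 19.3% higher over all tested genes. TAX1BP1, a receptor that also restrains inflammatory signalling, had 101 ± 16.1 CPM with ZQ and 253 ± 48.1 CPM in controls (SD, n = 3 each), and fell by 1.33 ± 0.20 on the log2 scale (SE, edgeR adjusted p = 7.0e-04). BNIP3, a receptor for mitochondria, changed by -0.95 ± 0.15 (SE, edgeR adjusted p = 7.7e-04), and both calls held in all 17 alternatives. CALCOCO2, which encodes NDP52, a receptor for cytosolic bacteria, changed by -0.88 ± 0.25 (SE, edgeR adjusted p = 0.017), a call that ended with upper-quartile scaling (-0.44), with the offsets (-0.32) and without control library 1 (-0.73), 2 (-0.78) or 3 (-0.79). NBR1 and OPTN, which bind ubiquitin as p62 does, had 83.1 ± 4.21 and 165 ± 39.5 CPM with ZQ and 85.2 ± 4.85 and 154 ± 1.99 CPM in controls (SD, n = 3 each).

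Upstream regulators had 1 gene higher and 2 lower of 13 tested, beside 19.3% higher and 19.0% lower over all tested genes. TFEB, a transcription factor of lysosomal and autophagy genes, had 24, 7 and 3 counts in the ZQ libraries, against 0, 19 and 14 in controls. Every control library lay under the level of the low-count filter, 1.42 CPM of library totals. TFEB was thus tested only through the ZQ libraries, where it is high. Its log2 change of 3.03 ± 1.12 (SE) did not pass (edgeR adjusted p = 0.055), though it passed in 5 of 12 alternatives that tested it. That change is a description only. Without ZQ library 1, which held 24 of the 34 ZQ counts, it was 1.70 (edgeR adjusted p = 0.33). Its paralog TFE3 and the kinase MTOR, which restrains ULK1, had no call in any alternative, with log2 changes of 0.55 ± 0.41 and -0.44 ± 0.46 (SE). Autophagosome fusion genes had 1 higher and 3 lower of 11 tested. RAB7A, the GTPase of late endosomes, changed by -0.47 ± 0.13 (SE, edgeR adjusted p = 0.016), a call that ended with upper-quartile scaling (-0.03), with the offsets (-0.23) and without control library 1 (-0.35) or 3 (-0.30), among others. The fusion proteins STX17 and VAMP8 had no call at 1.01 ± 0.47 and 0.52 ± 0.21 (SE), and each passed in 4 of 17 alternatives, STX17 without ZQ library 1 (1.20) among them, while VAMP8 stood at -0.32 with the offsets.

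The genes outside the pathway whose levels followed a core gene most closely were sought among 5714 genes with a mean of at least 20 CPM. The measure was the root mean square distance in log2 CPM over the 6 libraries, each gene set to 0 at its control mean. Nearest to SQSTM1 were UBL4A, UBTF and SLC1A5, at distances of 0.10, 0.12 and 0.14. Nearest to BECN1 were HDAC1, CAP1 and HELLS, at 0.06, 0.10 and 0.10. With 6 libraries in 2 groups, such closeness is a description only.

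RefSeq promoters (GRCh38.p14), the 250 bases before and 50 after each start site, were searched on both strands for 3 motifs, with 13 promoters for the 10 genes. TCACGTGA, the core of the CLEAR element bound by TFEB, was in none of the 13 and in 0.98% of 35116 promoters. TGACNNNGC, the antioxidant response element, was in 1 of 13, that of MAP1LC3B, and in 13.3% of all. TGATGNAA, a composite site bound by ATF4, was in none and in 3.62% of all. These are matches of letters in a short window and say nothing of binding.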

How the data were processed

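Sequencing libraries were made with an NEBNext Ultra kit from DNase-treated RNA, per the labels' protocols. The authors deposited raw read counts per gene, which are not normalised, and the submitters' processing notes name the GRCh38 build and Cufflinks 2.1.1 without a role. No label names the aligner, counting tool, annotation or strand setting. The 228 rows without an Ensembl ID carry the authors' names for new genes, took 0.141% of counts in ZQ and 0.0992% in control libraries, and stayed in the fit.

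Counts were fitted with edgeR 4.0.16 in R 4.3.3, after filterByExpr (minimum count 10, minimum total count 15) and TMM scaling, with p-values adjusted by Benjamini-Hochberg over every gene that passed. The SE is the log2 change divided by the square root of F. In single libraries, 3 counts equal 1.45 to 1.67 CPM with ZQ and 0.174 to 0.231 CPM in controls, and intervals on counts cover counting error only. Alternatives used DESeq2 1.42.0, limma 3.58.1 (voom) and offsets from smooth curves in GC content and transcript length (mgcv 1.9.3). Symbols, lengths and positions came from GENCODE 29, which matched all 10 core and 71 further genes. The rule for named genes took the 10 core genes and 24 pathway genes whatever their values, and the 3 genes nearest to SQSTM1 and to BECN1. Members and lists were chosen with earlier results of these data known.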

Additional observations from a re-analysis of the deposited data

How the results depend on the processing

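Against 0 core genes higher and 4 lower with ZQ, leaving out 1 library at a time gave 0 to 1 higher and 2 to 5 lower, upper-quartile scaling gave 2 higher, the GC and length offsets 1 higher, and controls thinned to ZQ depth 2 lower. Of the further pathway genes, 4 higher and 19 lower, upper-quartile scaling gave 11 and 11, while library totals gave 1 higher, DESeq2 8 and leaving out 1 library 0 to 5. Over all genes, 2506 higher and 2472 lower, upper-quartile scaling gave 3767 and 1611, thinning 1246 and 1562, and no low-count filter 7957 higher, with 38214 genes tested. Leaving out 1 library gave 1389 to 2536 higher and 1426 to 2871 lower. The fit with a replicate block gave 1 further pathway gene higher, with the 4 core calls lower as before. Same-numbered ZQ and control libraries correlated by only 0.0094, 0.037 and 0.032, each best with its own number, so the numbers were not taken to pair them. Log2 changes that turned their sign were as follows. By library totals they were -0.0054 for SQSTM1, -0.17 for GABARAPL2, -0.36 for ATG3 and -0.28 for OPTN, and with no filter -0.094 for GABARAPL2, -0.29 for ATG3 and -0.21 for OPTN. Upper-quartile scaling gave 0.29 for WIPI1, 0.31 for ATG14, 0.41 for NBR1 and 0.0090 for MTOR. The offsets gave -0.13 for SQSTM1, 0.30 for ATG14, 0.50 for ATG12, -0.40 for ATG4B, -0.78 for MAP1LC3A, 0.36 for NBR1, -0.18 for TFE3 and -0.32 for VAMP8. Thinning gave 0.057 for WIPI1 and 0.28 for NBR1, and NBR1 was 0.043 with DESeq2 size factors, 0.061 with a stricter filter and 0.042 in DESeq2. Leaving out 1 library gave -0.64 to 0.20 for WIPI1, -0.70 to 0.13 for ATG14, -0.18 to 0.19 for ATG3, -0.17 to 0.14 for NBR1 and -0.11 to 0.24 for OPTN. The causes were not tested. Low ZQ counts limit ULK1 (101 counts), ATG7 (80), PIK3C3 (71), TFEB (34) and ATG16L1 (18), and GABARAP was low in both groups. In ZQ counts per kb of exon, the 99th percentile of the smell receptor genes was 16.0. Besides those genes, ATG9A (3.81), TSC2 (7.24), ATG14 (7.52), MTOR (8.91) and MAP1LC3B2 (9.62) lay under it, as did TFEB (6.02).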
